A study of Mus musculus with 12 samples.

Results

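The genes described here are Trp53, which encodes the transcription factor p53, and 9 genes that p53 is known to activate: Mdm2, Cdkn1a, Bbc3, Aen, Ccng1, Sesn1, Sesn2, Phlda3 and Trp53inp1. They were chosen by gene symbol, and all 10 were present among the 13715 genes of the count table, each as 1 entry. The RNA came from cultured mouse macrophages that had formed from bone marrow cells over 7 days under M-CSF (40 ng/ml), the growth factor of the macrophage lineage. There were 4 groups of 3 libraries: KO cells given IL-4 (20 ng/ml, 24 h), WT cells given IL-4, KO cells left without it (mock), and WT mock cells. The KO genotype was LysMCre Stk11 fl/fl, in which Cre recombinase, made from the lysozyme M locus in myeloid cells, deletes the floxed Stk11 gene that encodes the kinase LKB1. The controls were labelled WT only. The sources used here do not give the age, sex or strain of the mice, nor whether WT cells carried Cre or a floxed allele. IL-4 drives the alternative activation of macrophages. In build mm10 the genes lie as follows. Trp53 is at chr11:69580359-69591873 and Ccng1 at chr11:40748552-40755311 (minus strand). Mdm2 is at chr10:117688875-117710758 (minus strand) and Sesn1 at chr10:41809935-41908424. Bbc3 is at chr7:16308393-16318205 and Aen at chr7:78895854-78911209. Sesn2 is at chr4:132492032-132510501 (minus strand) and Trp53inp1 at chr4:11156431-11174379. Cdkn1a is at chr17:29090976-29100727 and Phlda3 at chr1:135766119-135769136, and all whose strand is not stated are on the plus strand. The labels do not tie replicates to separate mice or cultures, so each p-value reflects only how far these samples scatter, and that scatter may be technical.

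In unstressed cells p53 protein is kept low by Mdm2, the ubiquitin ligase that marks it for destruction and that is itself a p53 target, so that p53 and Mdm2 form a feedback loop. DNA damage and other stress stabilise p53, which then activates genes that halt the cell cycle, trigger cell death or restrain growth signalling through the sestrins. Control is exerted largely on the protein, and neither the protein nor its binding to DNA was measured in these libraries.

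Stk11 stood at 8.31, 5.56 and 9.24 CPM (counts scaled by TMM library size) in KO IL-4 libraries, against 42.5, 54.4 and 38.7 CPM in WT IL-4 libraries. In mock cultures the values were 5.34, 3.87 and 8.77 CPM in KO libraries, against 44.9, 46 and 37.7 CPM in WT libraries, so every KO library lay below every WT library. Counts were per gene, so the deleted exons were not seen apart from the others. Both KO libraries numbered 2 stood apart, with 43.4 (IL-4) and 43.1 (mock) CPM of Lyz2, the gene that holds the Cre insertion, against 15400 to 21600 CPM in the other 4 KO libraries and 28500 to 44600 CPM in WT libraries. Library totals ran from 30651627 to 39136822 counts. The summed level of 10 neutrophil markers was 565 to 990 CPM in KO IL-4 and 309 to 432 CPM in WT IL-4 libraries. It was 721 to 1220 CPM in KO mock and 405 to 551 CPM in WT mock libraries. At an adjusted p under 0.05, 7 of the 10 were called higher in KO with IL-4, against 8.57% of all genes. In mock 8 were called higher and 1 lower, against 15.7% and 18.8% of all genes. Much of the WT sum was Csf3r and Mmp8, which averaged 129 and 150 CPM in WT IL-4 libraries. In WT mock libraries they averaged 204 and 95.2 CPM. Mpo was near 0 and Elane was not among the genes of the table. The 6 macrophage markers summed to 7890 to 8220, 7980 to 8440, 6540 to 6880 and 7050 to 7320 CPM in the same order of groups. Most of this was Csf1r and Cd68, and single markers differed in both directions. With IL-4, 1 was called higher in KO and 1 lower, against 8.57% and 10.2% of all genes (log2 fold changes -0.46 to 0.65). In mock 1 was called higher and 3 lower, against 15.7% and 18.8% (-0.79 to 0.21). Erythroid and megakaryocyte markers summed to 513 to 646 CPM in KO and 39.9 to 63.8 CPM in WT libraries, nearly all of it Pf4, which averaged 560 CPM in KO IL-4, 50.5 CPM in WT IL-4, 600 CPM in KO mock and 47.0 CPM in WT mock libraries. Libraries also differed in how counts depended on gene length: Spearman correlations of a library's deviation from its group with length, over 8126 genes, ran from -0.54 (WT IL-4 library 2) to 0.53 (WT IL-4 library 1), and stood at -0.51 in KO mock library 1. In bulk RNA, fewer cells of a type and less RNA per cell cannot be told apart.

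Per length, Cdkn1a, the inhibitor of cyclin-dependent kinases that p53 uses to stop the cell cycle, and Sesn1, a stress-induced restraint on growth signalling, were the most abundant of the 10. Cdkn1a averaged 51.7 ± 15.8 RPKM (CPM per kilobase of gene model; SD, n = 12) and Sesn1 49.9 ± 11.9 RPKM. Within each genotype their order differed between treatments. Cdkn1a lay above Sesn1 in KO IL-4 libraries (58.0 to 65.6 and 33.9 to 39.8 RPKM) and in WT IL-4 libraries (62.9 to 81.9 and 41.6 to 50.3 RPKM). It lay below Sesn1 in KO mock libraries (34.0 to 38.8 and 46.2 to 50.3 RPKM) and in WT mock libraries (35.5 to 42.7 and 66.5 to 68.9 RPKM). Ccng1 followed at 30.9 ± 5.31, Mdm2 at 23.0 ± 3.15, Phlda3 at 20.3 ± 3.69 and Trp53 at 15.2 ± 1.78 RPKM. Sesn2 averaged 8.66 ± 2.38 RPKM. The lowest 3 genes were Bbc3 (4.61 ± 1.14), Trp53inp1 (4.57 ± 0.989) and Aen (4.48 ± 0.468 RPKM). Over the 12 libraries the ranges of each pair of neighbours in this order overlapped. Raw counts of the 10 genes ranged from 229, for Bbc3 in KO mock library 3, to 10855, for Cdkn1a in WT IL-4 library 2.

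**Figure D1:**
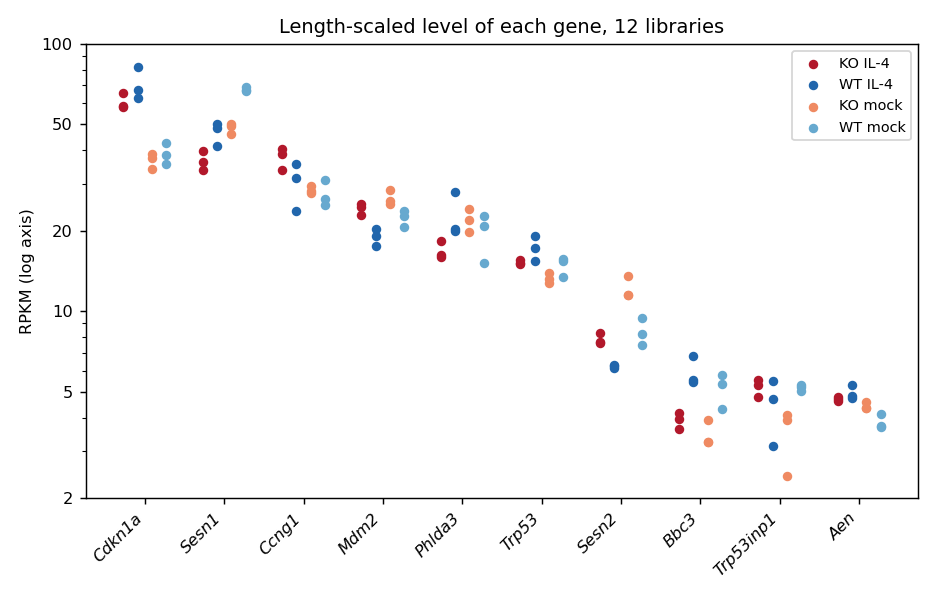
Length-scaled level in RPKM (log axis) of each gene in the 12 libraries, with 1 point per library and the groups in the order KO IL-4, WT IL-4, KO mock and WT mock from left to right within a gene. Cdkn1a and Sesn1 are the most abundant at 51.7 and 49.9 RPKM on average, and Bbc3, Trp53inp1 and Aen lie together at about 4.61, 4.57 and 4.48 RPKM.

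The promoters of these genes are shown because p53 acts on most of them through response elements, each made of a pair of half-sites of 10 bases. RefSeq promoter windows (build GRCm38.p6, 250 bases before to 50 after a gene start) were given for 9 of the 10 genes. Trp53inp1 was not among them. The search looked for the p53 response element of 20 bases with at most 1 mismatch and no spacer, and for the exact half-site. Both motifs read the same on either strand, and a half-site inside a full element was also counted as a half-site. A full element stood in the windows of 2 of these 9 genes (22.2%), Cdkn1a and Ccng1, against 29 of 27025 genes with windows (0.107%). A half-site stood in 6 of the 9 (66.7%), against 9.55% of all genes with windows. Among genes of the count table with windows the shares were 0.0907% and 8.13%. Because known p53 targets were chosen, higher shares were partly built into the choice and are no result of these libraries. The stretch from Cdkn1a lies at chr17:29090868-29090975 on the plus strand, ahead of the upstream start of the gene, and the first base of its element is 48 bases before the gene's start in the annotation of the table. The window of the downstream RefSeq start, chr17:29093519-29093818, held no element. The stretch from Ccng1 lies at chr11:40755402-40755536 on the minus strand, with the first base of its element 170 bases before the gene's start. Capitals mark the element.
Cdkn1a: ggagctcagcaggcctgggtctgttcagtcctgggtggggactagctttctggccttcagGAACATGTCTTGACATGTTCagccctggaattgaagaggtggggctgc
Ccng1: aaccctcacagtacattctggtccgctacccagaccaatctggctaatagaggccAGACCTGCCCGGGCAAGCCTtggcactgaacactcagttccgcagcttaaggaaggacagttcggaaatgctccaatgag

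Single half-sites outside a full element, in capitals with 5 bases on either side, stood in the windows of Cdkn1a (chr17:29090901-29090920, plus strand, within the stretch above), Mdm2 (chr10:117710930-117710949, minus strand), Trp53 (chr11:69580279-69580298, plus strand), Aen (chr7:78895932-78895951, plus strand) and Sesn1 (chr10:41887261-41887280, plus strand). All half-sites found outside a full element are shown, whether or not the gene was called. Mdm2 and Sesn1 differed between KO and WT. With IL-4, Cdkn1a rose in both genotypes and Aen in WT, whereas Sesn1 fell in both genotypes and Mdm2 in WT. Trp53 was called in no comparison of the reported fit. Any link between a half-site and these differences was not tested.
Cdkn1a: ggtggGGACTAGCTTtctgg
Mdm2: gatagGAACTTGCCTagcga
Trp53: cggaaGGACTTGCCCttact
Aen: aagccGGGCTTGTCCgggca
Sesn1: ccttcAAGCTTGTTTttgct
The Mdm2 window lies ahead of its upstream start and does not cover the first intron, in which the p53-responsive promoter of Mdm2 is known to lie. The windows of Bbc3, Phlda3 and Sesn2 held neither motif, which says only that these letters are not in these 300 bases. A match describes a sequence and shows no binding.

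KO against WT asks what loss of Stk11, together with the Lyz2-Cre insertion, went along with in each condition. The p53 genes did not move in 1 direction. With IL-4, Mdm2 and Sesn2 were higher in KO macrophages and Bbc3 and Sesn1 were lower. In mock cultures Mdm2 and Sesn2 were again higher and Bbc3 and Sesn1 lower, and Trp53inp1 was lower as well. By edgeR's quasi-likelihood test at an adjusted p under 0.05, 4 of the 10 genes were called with IL-4, against 18.8% of all genes, with 2 higher (8.57% of all genes) and 2 lower (10.2%). In mock cultures 5 of the 10 were called, against 34.5% of all genes, with 2 higher (15.7%) and 3 lower (18.8%). The median log2 fold change of the 10 genes was -0.13 with IL-4 and -0.01 in mock cultures, beside -0.01 and -0.02 over all genes. Without both KO 2 libraries, 2 of the 10 were called with IL-4 and 3 in mock cultures. Calls in the whole table with IL-4 fell too, from 2579 to 1596. In mock they ran from 3980 to 4946 over alternative settings other than the omission of 1 library, against 4731 in the reported fit.

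Trp53 and its antagonist Mdm2 differed in how they stood between the genotypes. Trp53 stood at 61.5, 60.8 and 63.1 CPM in KO IL-4 libraries, against 70.2, 77.2 and 62.3 CPM in WT IL-4 libraries. In mock cultures it stood at 56.0, 51.9 and 53.3 CPM in KO, against 63.5, 62.3 and 54.3 CPM in WT. The groups overlapped in both conditions, and the log2 fold changes of -0.18 with IL-4 (95% interval -0.37 to 0.02, adjusted p = 0.17) and -0.16 in mock (-0.35 to 0.04, adjusted p = 0.16) did not pass the test. Mdm2 stood at 116, 128 and 125 CPM in KO IL-4 libraries, against 96.9, 89.1 and 103 CPM in WT IL-4 libraries. In mock cultures it stood at 131, 145 and 128 CPM in KO, against 105, 116 and 121 CPM in WT. In both conditions every KO library exceeded every WT library. The log2 fold change of Mdm2 was 0.35 with IL-4 (SE 0.08, 1.28-fold, adjusted p = 0.0058) and 0.24 in mock (SE 0.08, 1.18-fold, adjusted p = 0.026). The mock difference missed the threshold without KO mock library 2 (0.19, adjusted p = 0.11), without WT mock library 1 (0.21, adjusted p = 0.091), without both KO 2 libraries (0.21, adjusted p = 0.096) and with library totals as the only scaling (0.19, adjusted p = 0.099).

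**Figure D2:**
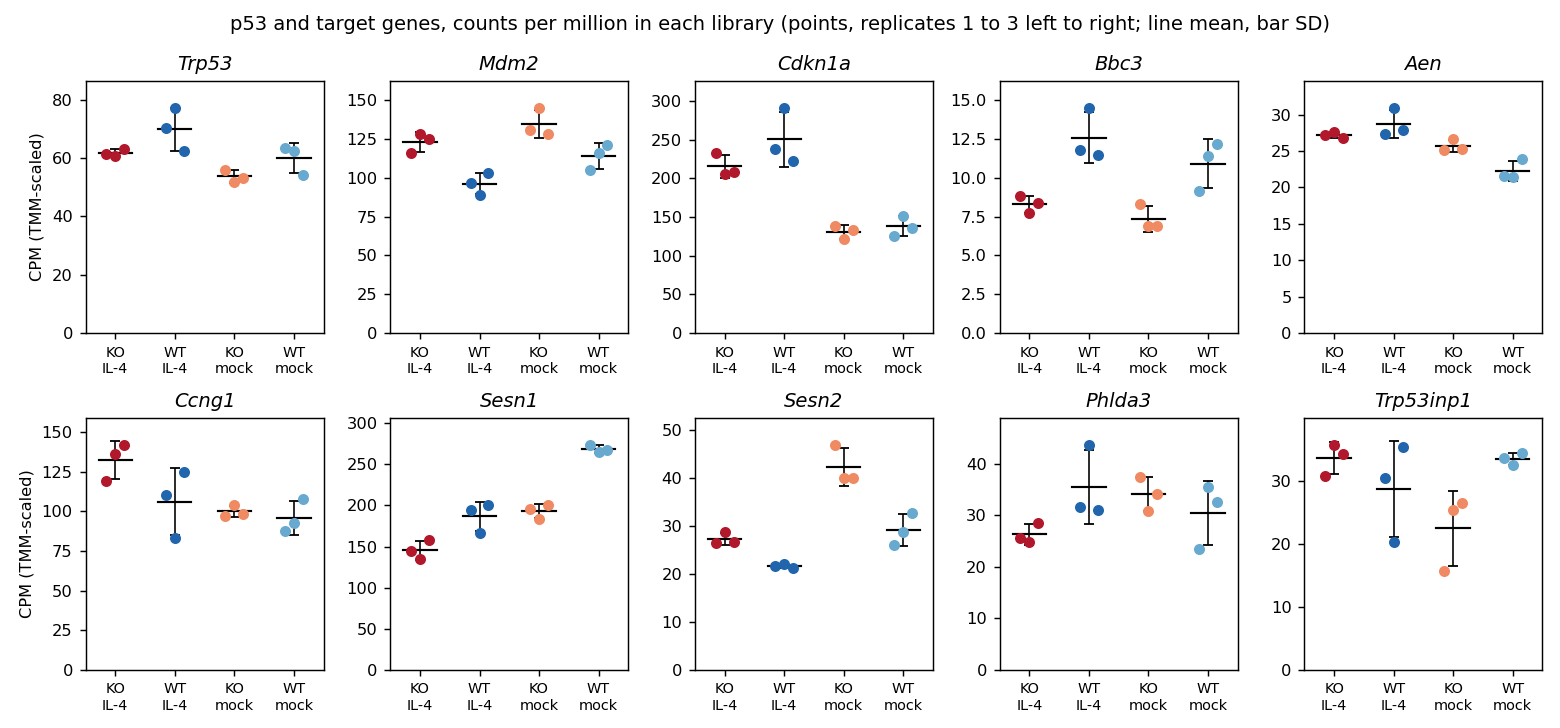
CPM (TMM-scaled, linear axes from 0) of the 10 genes in each library, with groups in the order KO IL-4, WT IL-4, KO mock and WT mock; points are libraries, horizontal lines are means and bars are SD (n = 3). Mdm2 lies higher and Bbc3 and Sesn1 lie lower in KO than in WT in both conditions with no overlap, while the groups of Trp53 and Cdkn1a overlap between genotypes.

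Neither gene of cell-cycle control among the 10 passed the test between genotypes. Cdkn1a stood at 233, 206 and 208 CPM in KO IL-4 libraries, against 238, 291 and 223 CPM in WT IL-4 libraries. In mock cultures it stood at 138, 121 and 133 CPM in KO, against 126, 152 and 136 CPM in WT. The groups overlapped in both conditions, with log2 fold changes of -0.22 (95% interval -0.45 to 0.01, adjusted p = 0.15) and -0.08 (-0.31 to 0.15, adjusted p = 0.58). Ccng1, a cyclin that recruits phosphatase activity to Mdm2, stood at 119, 136 and 142 CPM in KO IL-4 libraries, against 110, 83.4 and 125 CPM in WT IL-4 libraries, a log2 fold change of 0.31 (0.03 to 0.60, adjusted p = 0.091) with overlapping groups. It passed the threshold without WT IL-4 library 3 (0.46, adjusted p = 0.020). In mock cultures Ccng1 ranged from 97.3 to 104 CPM in KO and from 87.3 to 108 CPM in WT libraries, with a log2 fold change of 0.06 (-0.23 to 0.34, adjusted p = 0.76).

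Of the genes of cell death, Bbc3, which encodes the BH3-only protein PUMA that drives the mitochondrial route of apoptosis, was lower in KO. It stood at 8.81, 7.72 and 8.40 CPM in KO IL-4 libraries, against 11.8, 14.5 and 11.5 CPM in WT IL-4 libraries. In mock cultures it stood at 8.33, 6.88 and 6.90 CPM in KO, against 9.17, 11.4 and 12.2 CPM in WT. No KO library reached the level of a WT library of its condition. The log2 fold changes were -0.60 with IL-4 (SE 0.13, adjusted p = 0.0049) and -0.57 in mock (SE 0.13, adjusted p = 0.0046), and both passed the threshold in each of the 22 alternative settings. Aen, a p53-induced nuclease, averaged 27.2 ± 0.413 CPM in KO IL-4, 28.7 ± 1.88 CPM in WT IL-4, 25.7 ± 0.835 CPM in KO mock and 22.3 ± 1.36 CPM in WT mock libraries (SD, n = 3). Its mock libraries did not overlap between genotypes, but the log2 fold change of 0.20 (95% interval 0.02 to 0.38, adjusted p = 0.056) missed the threshold, which it passed in 12 of 22 alternative settings (adjusted p from 0.021 to 0.18). With IL-4 the Aen log2 fold change was -0.08 (-0.26 to 0.10, adjusted p = 0.54).

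Phlda3, a p53 target that restrains the kinase Akt, stood at 25.5, 24.8 and 28.5 CPM in KO IL-4 libraries, against 31.6, 43.7 and 31.1 CPM in WT IL-4 libraries. These groups did not overlap, and the log2 fold change of -0.43 (95% interval -0.78 to -0.08) had an adjusted p of 0.061, which passed in 5 of 22 alternative settings (0.021 to 0.25). In mock cultures the Phlda3 groups overlapped (30.9 to 37.5 CPM in KO, 23.5 to 35.5 CPM in WT; log2 fold change 0.16, -0.19 to 0.51, adjusted p = 0.43). Trp53inp1, a stress protein that promotes p53 function and autophagy, had values of 15.6, 25.4 and 26.4 CPM in KO mock libraries, against 33.6, 32.5 and 34.4 CPM in WT mock libraries. The KO values lay below the WT values, with library 1 far below the other two, and the log2 fold change was -0.57 (SE 0.19, adjusted p = 0.031). Without KO mock library 1 it was -0.36 (adjusted p = 0.13). It also missed the threshold without both KO 2 libraries (-0.64, adjusted p = 0.050), without KO IL-4 library 3 (adjusted p = 0.052) and without WT mock library 1, 2 or 3 (adjusted p = 0.091, 0.068 and 0.094). With IL-4 Trp53inp1 overlapped between genotypes (30.8 to 35.7 CPM in KO, 20.3 to 35.3 CPM in WT; log2 fold change 0.23, -0.20 to 0.66, adjusted p = 0.44). Trp53inp1 is the longest gene model of the 10 (6475 bases) and Phlda3 the shortest (1559 bases). With the per-library trend with length removed, the log2 fold change of Trp53inp1 in mock was -0.49 (adjusted p = 0.035) and that of Phlda3 with IL-4 was -0.45 (adjusted p = 0.026).

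The sestrins, which activate AMPK signalling and inhibit mTORC1, moved in opposite directions. Sesn1 stood at 144, 135 and 158 CPM in KO IL-4 libraries, against 194, 166 and 200 CPM in WT IL-4 libraries. In mock cultures it stood at 196, 184 and 200 CPM in KO, against 274, 265 and 268 CPM in WT. Every KO library was thus below every WT library of its condition, with log2 fold changes of -0.36 (SE 0.08, adjusted p = 0.0057) and -0.48 (SE 0.08, adjusted p = 0.00047). Sesn2 stood at 26.5, 28.7 and 26.6 CPM in KO IL-4 libraries, against 21.6, 22.0 and 21.2 CPM in WT IL-4 libraries. In mock cultures it stood at 47.0, 40.1 and 40.0 CPM in KO, against 26, 28.7 and 32.8 CPM in WT. Here every KO library exceeded every WT library of its condition, with log2 fold changes of 0.33 (SE 0.09, adjusted p = 0.024) and 0.54 (SE 0.09, adjusted p = 0.00067). With IL-4, Sesn1 missed the threshold without both KO 2 libraries (-0.30, adjusted p = 0.053), and Sesn2 missed it without both of them (0.30, adjusted p = 0.10), without KO IL-4 library 2 (0.30, adjusted p = 0.086) and without WT IL-4 library 1 (0.34, adjusted p = 0.061). The higher neutrophil marker levels of KO libraries went along with all KO against WT differences given here, and their part in them was not tested.

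**Figure D3:**
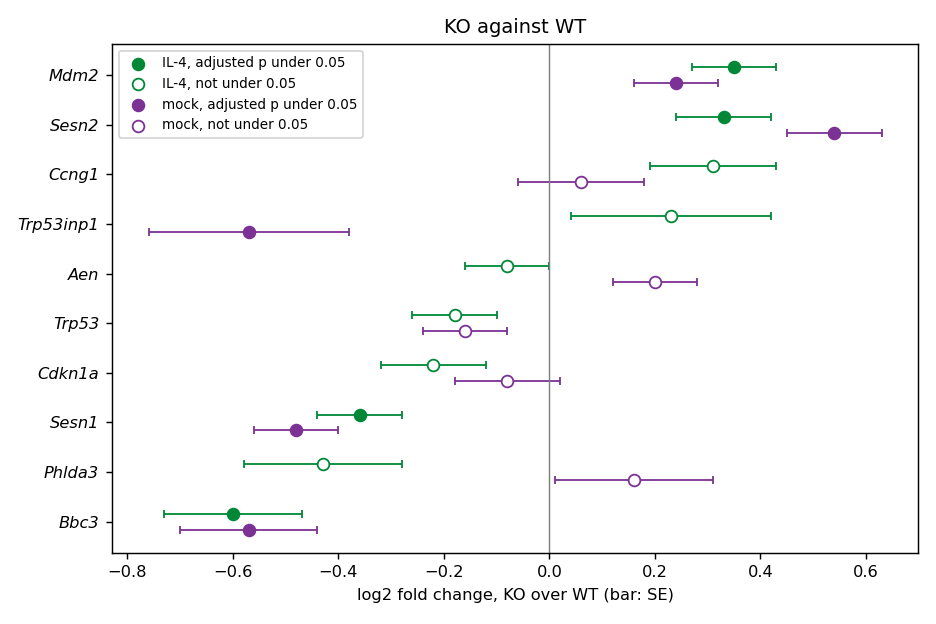
Log2 fold change of KO over WT (horizontal axis, bars SE) for the 10 genes, with IL-4 in green above mock in purple; filled points have an adjusted p under 0.05. Mdm2 (0.35 and 0.24) and Sesn2 (0.33 and 0.54) lie to the right in both conditions and Sesn1 (-0.36 and -0.48) and Bbc3 (-0.60 and -0.57) to the left, while Trp53inp1 is filled in mock only.

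IL-4 against mock asks how the cytokine altered these genes within a genotype. Cdkn1a rose and both sestrins fell with IL-4 in KO and in WT macrophages. In KO, Ccng1 and Trp53inp1 rose too. In WT, Aen rose and Mdm2 fell. In KO 5 of the 10 genes were called, against 30.3% of all genes, with 3 higher (16% of all genes) and 2 lower (14.2%). In WT 5 of the 10 were called, against 26.7% of all genes, with 2 higher (13.6%) and 3 lower (13.0%). Without both KO 2 libraries, 3 were called in KO and 4 in WT. The shares of all genes called in that fit are not given here. These comparisons share their mock and IL-4 libraries with those between genotypes. Within a genotype, libraries that share a number deviated together. The labels give them a number and no more, and the pairing rests on that correlation. The KO 2 libraries also shared the low Lyz2 level given above. With the same-numbered pair as a block, 7 of the 10 genes were called in KO and 6 in WT. The 30.3% and 26.7% of all genes are from the fit without the block, and its own shares are not given here. Over the alternatives other than the omission of 1 library, calls in the whole table ran from 2932 to 5284 in KO. They ran from 3011 to 4700 in WT, against 4152 and 3658 in the reported fit. The block added Trp53, with log2 fold changes of 0.20 in KO (adjusted p = 0.019) and 0.22 in WT (adjusted p = 0.014), and in KO Phlda3 (-0.38, adjusted p = 0.0049). Without the block these were 0.20 (95% interval 0.01 to 0.40, adjusted p = 0.087), 0.22 (0.03 to 0.41, adjusted p = 0.069) and -0.38 (-0.73 to -0.03, adjusted p = 0.074). Leaving out 1 pair at a time, the block called Trp53 in 4 of 6 settings in KO and 5 of 6 in WT, and Phlda3 in KO in 5 of 6.

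Cdkn1a showed the largest IL-4 change of the 10. It stood at 233, 206 and 208 CPM in KO IL-4 libraries, against 138, 121 and 133 CPM in KO mock libraries, a log2 fold change of 0.72 (SE 0.10, 1.65-fold, adjusted p = 7.7e-05). In WT it stood at 238, 291 and 223 CPM with IL-4, against 126, 152 and 136 CPM in mock, a log2 fold change of 0.86 (SE 0.10, 1.82-fold, adjusted p = 1.3e-05). The IL-4 and mock values did not overlap in either genotype, and the calls held in all 28 alternative settings. The Cdkn1a exons share 273 bases (7.68% of the gene model) with the antisense gene 1700023B13Rik, which held 6 to 33 counts per library, against 3931 to 10855 for Cdkn1a. The strandedness of the libraries is not given in the sources used here. None of the other 9 genes shares exon bases with another gene in the annotation.

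Sesn1 fell with IL-4 by 0.41 on the log2 scale in KO (SE 0.08, adjusted p = 0.0013) and by 0.53 in WT (SE 0.08, adjusted p = 0.00015), with no overlap between IL-4 and mock libraries in either genotype. Sesn2 fell by 0.64 in KO (SE 0.09, adjusted p = 0.00014), where IL-4 libraries held 26.5 to 28.7 CPM and mock libraries 40.0 to 47.0 CPM. In WT it fell by 0.43 (SE 0.09, adjusted p = 0.0032), with 21.2 to 22.0 CPM under IL-4 and 26 to 32.8 CPM in mock. These 4 calls held in all 28 alternative settings. The lowest Sesn1 levels of the study were thus in KO IL-4 libraries and the highest in WT mock libraries, whereas Sesn2 was lowest in WT IL-4 and highest in KO mock libraries.

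Mdm2 stood at 116 to 128 CPM in KO IL-4 and 128 to 145 CPM in KO mock libraries, a log2 fold change of -0.13 (95% interval -0.31 to 0.05, adjusted p = 0.22). In WT it held 96.9, 89.1 and 103 CPM with IL-4, against 105, 116 and 121 CPM in mock, without overlap (-0.24, SE 0.08, adjusted p = 0.034). The WT call was lost in 10 of 28 alternative settings, among them the omission of any 1 KO IL-4 library (adjusted p = 0.058, 0.066 and 0.074), of WT IL-4 library 1 or 2 (0.11 and 0.12), of WT mock library 2 or 3 (0.13 and 0.17) and of both KO 2 libraries (0.065). With the pair block the WT change had an adjusted p of 0.0084.

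Ccng1 rose with IL-4 in KO, with 119, 136 and 142 CPM in IL-4 libraries, against 97.3, 104 and 98.6 CPM in mock libraries and no overlap (0.41, SE 0.12, adjusted p = 0.022). Trp53inp1 rose there as well, with 30.8, 35.7 and 34.3 CPM in KO IL-4 libraries, against 15.6, 25.4 and 26.4 CPM in KO mock libraries and no overlap (0.58, SE 0.19, adjusted p = 0.032). Both calls were lost on leaving out any of several libraries. Ccng1 missed the threshold without KO IL-4 library 2 or 3 (adjusted p = 0.069 and 0.093), without KO mock library 1 or 3 (0.066 and 0.059) and without both KO 2 libraries (0.094). In these settings its log2 fold change ran from 0.35 to 0.41, near that of the reported fit, and its SE from 0.14 to 0.16. Trp53inp1 missed the threshold without KO IL-4 library 2 or 3 (0.53 and 0.56, adjusted p = 0.099 and 0.088) and without both KO 2 libraries (0.63, adjusted p = 0.089). It moved most without KO mock library 1 (log2 fold change 0.37, adjusted p = 0.13). Trp53inp1 is the longest gene model of the 10. In KO the IL-4 log2 fold change correlated with length at 0.34 over 8126 genes. With the pair block the adjusted p was 0.00099 for Ccng1 and 0.0014 for Trp53inp1, and both passed in 6 of 6 settings that left out 1 pair.

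Aen rose with IL-4 in WT, with 27.4, 30.9 and 27.9 CPM in IL-4 libraries, against 21.6, 21.4 and 23.9 CPM in mock libraries and no overlap (0.37, SE 0.08, adjusted p = 0.0025). In KO the Aen log2 fold change was 0.08 (95% interval -0.09 to 0.26, adjusted p = 0.45), from 26.8 to 27.6 CPM in IL-4 libraries and 25.1 to 26.6 CPM in mock libraries. Bbc3 had log2 fold changes of 0.17 in KO (-0.13 to 0.48, adjusted p = 0.35) and 0.20 in WT (-0.09 to 0.50, adjusted p = 0.27). Of the remaining values in WT, Ccng1 was at 0.15, Phlda3 at 0.22 and Trp53inp1 at -0.23, with adjusted p of 0.43, 0.33 and 0.43.

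**Figure D4:**
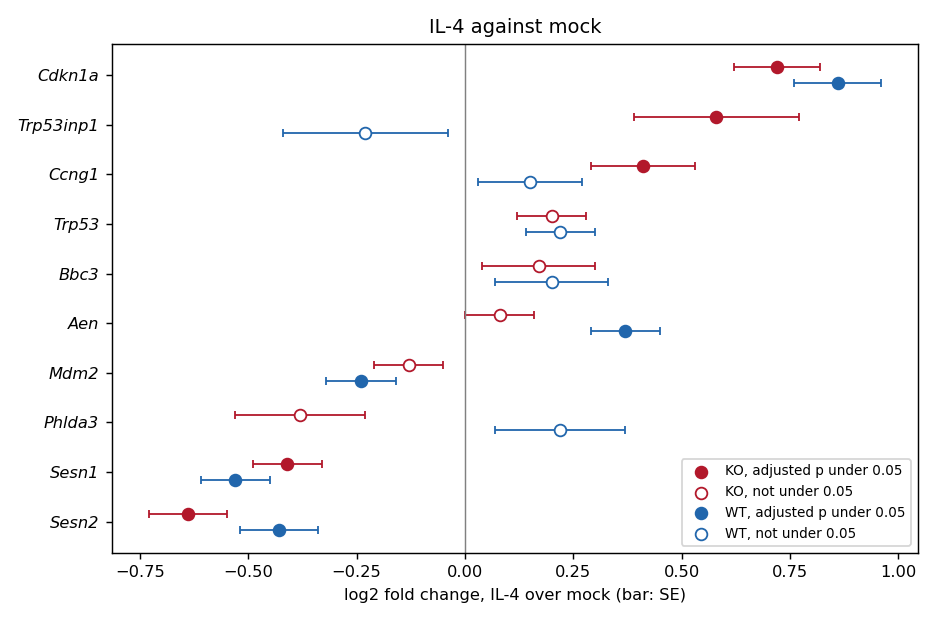
Log2 fold change of IL-4 over mock (horizontal axis, bars SE) for the 10 genes, with KO in red above WT in blue; filled points have an adjusted p under 0.05. Cdkn1a lies farthest to the right in both genotypes (0.72 and 0.86) and Sesn1 and Sesn2 lie to the left in both, while the points of Trp53inp1 (0.58 and -0.23) and Phlda3 (-0.38 and 0.22) stand on opposite sides of 0.

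Whether the IL-4 response differed between genotypes was tested as the log2 fold change in KO minus that in WT. No one of the 10 genes was called, against 0.736% of all genes, and 3 had an unadjusted p under 0.05. These were Trp53inp1 (0.80, SE 0.27, adjusted p = 0.14), Phlda3 (-0.60, SE 0.21, adjusted p = 0.17) and Aen (-0.28, SE 0.11, adjusted p = 0.19). DESeq2's Wald test called 1 of the 10, Trp53inp1 (0.79, adjusted p = 0.046), and 742 genes in the whole table. With the pair block 2 were called, Trp53inp1 (0.86, SE 0.18, adjusted p = 0.0093) and Phlda3 (-0.60, SE 0.13, adjusted p = 0.012), while the number of genes called in the whole table grew to 1596, against 101 without the block. Leaving out 1 same-numbered pair at a time under the block, the Trp53inp1 difference ran from 0.65 to 1 and was called in 6 of 6 settings, and that of Phlda3 ran from -0.75 to -0.51 and was called in 5 of 6. With the block and the length trend removed together, they were 0.77 (adjusted p = 0.014) and -0.46 (adjusted p = 0.049).

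Within same-numbered pairs, Trp53inp1 was higher with IL-4 in 3 of 3 KO pairs. In WT it held 30.4, 20.3 and 35.3 CPM with IL-4, against 33.6, 32.5 and 34.4 CPM in mock, so that it was higher in 1 of 3. Phlda3 was lower with IL-4 in 3 of 3 KO pairs, at 25.5, 24.8 and 28.5 CPM, against 37.5, 30.9 and 34.2 CPM in mock. In WT it held 31.6, 43.7 and 31.1 CPM with IL-4, against 23.5, 35.5 and 32.5 CPM in mock, and was lower in 1 of 3. WT IL-4 library 2, whose values stand apart for both genes, was the library with the most negative correlation with gene length. Over 8126 genes the correlation of the interaction with gene length was 0.56, so that longer genes such as Trp53inp1 tended to positive values. For Cdkn1a (-0.14, 95% interval -0.46 to 0.18), Mdm2 (0.11, -0.15 to 0.36), Trp53 (-0.02, -0.29 to 0.26) and both sestrins (Sesn1 0.12, -0.14 to 0.38; Sesn2 -0.21, -0.51 to 0.10) the intervals include 0.

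Among 37 other measured p53 targets of a list of 43, the KO against WT comparison called 6 higher and 7 lower with IL-4, and 6 higher and 10 lower in mock cultures. That was 35.1% of the list with IL-4, against 18.8% of all genes, and 43.2% in mock, against 34.5% of all genes. The list medians were -0.06 and -0.04, beside -0.01 and -0.02 over all genes. Gdf15, a secreted stress cytokine, averaged 14.1 ± 0.668 CPM in KO IL-4 and 5.48 ± 1.71 CPM in WT IL-4 libraries, and 26.1 ± 1.43 CPM in KO mock and 10.9 ± 0.763 CPM in WT mock libraries (SD, n = 3). Its log2 fold changes of 1.36 (SE 0.16, adjusted p = 6.6e-05) and 1.26 (SE 0.16, adjusted p = 5.9e-05) exceeded those of all 10 genes above. Gadd45a, a growth arrest gene, was also higher in KO, by 1.02 with IL-4 (adjusted p = 7.3e-05) and 0.52 in mock (adjusted p = 0.0045). So were Pmaip1, which encodes the BH3-only protein Noxa (0.84, adjusted p = 0.00040, and 0.48, adjusted p = 0.0076), and Aifm2, which protects membranes from lipid peroxidation (0.48, adjusted p = 0.00029, and 0.39, adjusted p = 0.00099). Pmaip1 and Bbc3, both BH3-only genes, thus differed in opposite directions between the genotypes.

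Among the targets lower in KO were Ephx1, an epoxide hydrolase (-0.98, adjusted p = 2.2e-05 with IL-4, and -0.70, adjusted p = 0.00021 in mock), the kinase gene Plk3 (-0.52, adjusted p = 0.00027, and -0.38, adjusted p = 0.0019) and the spindle gene Psrc1 (-1.06, adjusted p = 0.00093, and -0.79, adjusted p = 0.021). Ckap2, which is expressed in dividing cells, was at -1.47 (adjusted p = 0.0054) and -1.89 (adjusted p = 0.00051). Dram1, a regulator of autophagy, was lower in mock (-0.65, adjusted p = 0.00013) and stood at -0.16 with IL-4 (adjusted p = 0.25). By role, the 10 measured cell-cycle targets had 2 higher and 5 lower with IL-4 and 1 higher and 5 lower in mock, and the 11 of cell death had 2 higher and 1 lower, and 2 higher and 2 lower. Called cell-cycle targets thus made up 70% with IL-4 and 60% in mock, and called cell-death targets 27.3% and 36.4%. Of all genes 18.8% were called with IL-4 and 34.5% in mock, the latter near the mock share of cell-death targets. The 5 DNA repair targets had 0 called by edgeR with IL-4, where 1 had an unadjusted p under 0.05, and 1 lower in mock, the polymerase gene Polh (-0.91, adjusted p = 0.0010), whose IL-4 value was 0.00. The 11 targets of metabolism and secretion had 2 higher and 1 lower with IL-4 (27.3%, against 18.8% of all genes). In mock they had 3 higher and 2 lower (45.5%, against 34.5%). Ddit4, an mTORC1 inhibitor named after its values were seen because its level was under the minimum for naming, had the highest fold change of the 37 (2.16, adjusted p = 0.0031, and 1.55, adjusted p = 0.016) at averages of 1.89 CPM in KO IL-4, 0.419 CPM in WT IL-4, 1.23 CPM in KO mock and 0.403 CPM in WT mock libraries.

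**Figure D5:**
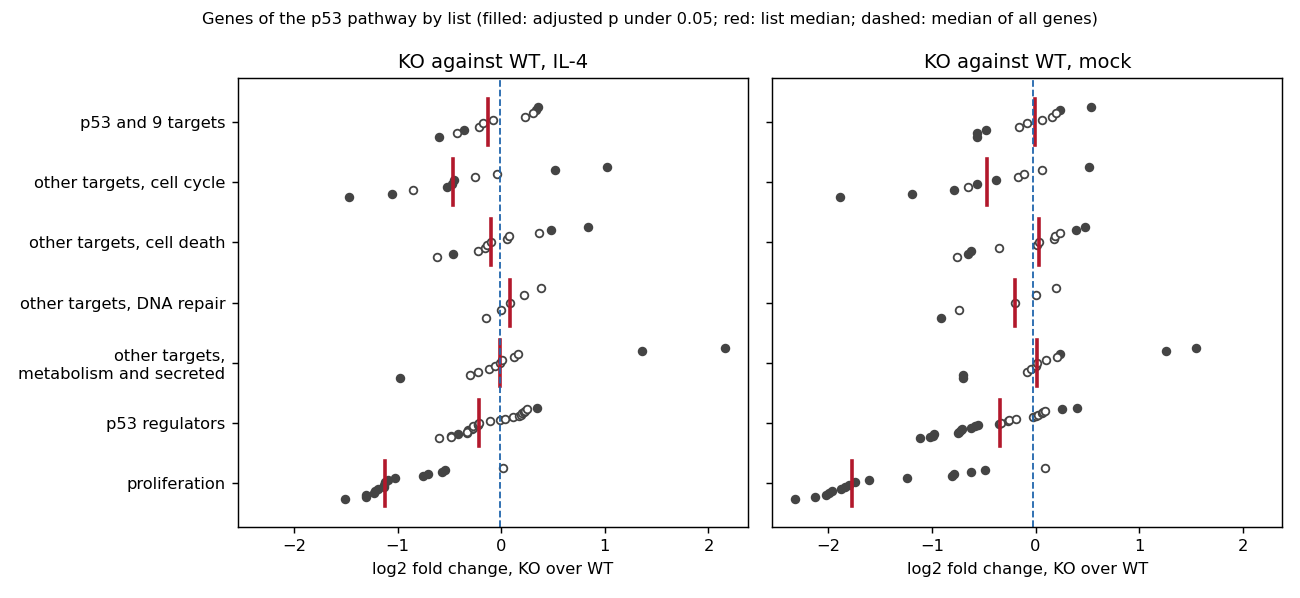
Log2 fold change of KO over WT (horizontal axis) for each gene of the p53 lists and of a proliferation list, with IL-4 in the left panel and mock in the right panel; filled points have an adjusted p under 0.05, red lines are list medians and dashed lines the median of all genes. The proliferation genes lie to the left (medians -1.12 and -1.77), whereas the 10 genes of the p53 list spread to both sides (medians -0.13 and -0.01).

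The same 37 targets had 9 higher and 6 lower with IL-4 in KO and 6 higher and 6 lower in WT, with medians of 0.09 and 0.09, beside 0.00 and -0.02 over all genes. That was 40.5% of the list in KO, against 30.3% of all genes, and 32.4% in WT, against 26.7% of all genes. Plk3 rose by 1.52 on the log2 scale in KO (SE 0.08, adjusted p = 3.0e-09) and 1.66 in WT (SE 0.08, adjusted p = 1.1e-09). Psrc1 rose by 2.20 (adjusted p = 3.4e-06) and 2.48 (adjusted p = 3.2e-07) from levels of 0.718 and 1.24 CPM in mock. Aifm2 (0.78 and 0.69) and Btg2, an antiproliferative gene (0.70 and 0.57), rose in both genotypes as well. Gadd45a fell by 1.27 in KO (adjusted p = 2.3e-06) and 1.77 in WT (adjusted p = 8.8e-08), Gdf15 by 0.89 (adjusted p = 0.00050) and 1 (adjusted p = 0.00037), and Pmaip1 by 0.53 (adjusted p = 0.0041) and 0.89 (adjusted p = 9.8e-05). Hence Gadd45a, Gdf15, Pmaip1 and Sesn2 were each higher in KO than in WT and lower with IL-4 than in mock, whereas Cdkn1a was higher with IL-4 and not called between genotypes. For the interaction edgeR called 0 of the 37 without the pair block, where 9 had an unadjusted p under 0.05. It called 9 with the block (6 higher, 3 lower), and DESeq2 called 3. Of all 13715 genes, 101 were called without the block, 1596 with it and 742 by DESeq2, so calls grew across the whole table.

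Of 24 measured regulators of p53 (Cdkn2a was not among the genes of the table), 1 was higher and 4 were lower in KO with IL-4, and 2 were higher and 12 lower in mock cultures, with medians of -0.22 and -0.34, beside -0.01 and -0.02 over all genes. With IL-4 the share called, 20.8%, was near the 18.8% of all genes, and in mock it was 58.3%, against 34.5% of all genes. Ep300 and Crebbp, the coactivators that acetylate p53, had log2 fold changes of -0.32 (adjusted p = 0.044) and -0.33 (adjusted p = 0.061) with IL-4, and -1.02 (adjusted p = 1.5e-05) and -0.72 (adjusted p = 0.00043) in mock. The p53 kinase genes Atm (-0.49, adjusted p = 0.062, and -1.12, adjusted p = 0.00047) and Hipk2 (-0.28, adjusted p = 0.035, and -0.58, adjusted p = 0.00024) followed. Chek2, a checkpoint kinase that phosphorylates p53, was higher with IL-4 (0.34, adjusted p = 0.0057), and Rpl11, a ribosomal protein that can bind Mdm2, was lower there (-0.49, adjusted p = 0.013). Several of these are long genes (Ep300 14273, Crebbp 13540 and Atm 10338 bases), and in mock the log2 fold change correlated at -0.49 with length over 8126 genes, against -0.07 with IL-4. With the length trend removed, the regulators had 3 higher and 11 lower in mock. The number called with IL-4 ran from 1 to 9 over the alternatives, and was 1 without both KO 2 libraries. Calls in the whole table fell from 2579 to 1596 in that setting. In the IL-4 response 8 were higher and 2 lower in KO (41.7%, against 30.3% of all genes) and 3 higher and 1 lower in WT (16.7%, against 26.7%). The log2 fold change of that response correlated with length at 0.34 in KO and -0.14 in WT over 8126 genes. In WT the pair block called 8 (4 higher, 4 lower). The 26.7% is from the fit without the block, and the share of all genes called with it is not given here.

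Genes of proliferation, many of which are known to be repressed downstream of p53 and Cdkn1a, were lower in KO in 15 of 16 cases with IL-4 and 15 of 16 in mock, 93.8% in each, against 10.2% and 18.8% of all genes. Mcm5, a subunit of the replicative helicase, averaged 26 ± 3.58 CPM in KO IL-4 and 56.5 ± 4.85 CPM in WT IL-4 libraries (-1.12, SE 0.14, adjusted p = 8.4e-05), and 19.1 ± 4.12 CPM in KO mock and 45 ± 4.72 CPM in WT mock libraries (-1.24, SE 0.14, adjusted p = 3.3e-05). Birc5, which encodes survivin, stood at -1.13 (adjusted p = 0.0033) and -1.99 (adjusted p = 4.2e-05). The exception was E2f1 (0.02 and 0.09, adjusted p = 0.89 and 0.37), named because it was the exception. Cdkn1a RNA had log2 fold changes of -0.22 with IL-4 and -0.08 in mock between genotypes, neither of them called. Whether p53 or Cdkn1a had a part in the lower proliferation genes was not tested, and neither protein was measured. The IL-4 response had 2 of the 16 (12.5%) called in KO, Mcm5 (0.45, adjusted p = 0.029) and Cdk1 (0.33, adjusted p = 0.031), against 30.3% of all genes. In WT 0 of the 16 were called in the edgeR fit of all 4 groups, where 2 had an unadjusted p under 0.05. There edgeR called 3 with the pair block and 3 in a fit of the 2 WT groups alone. In KO 0 were called without both KO 2 libraries and 4 with the pair block. The shares of all genes called in these alternative fits are not given here.

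As a description over the 12 libraries and 7927 protein-coding genes, the log2 CPM of Cdkn1a was most like those of Ctdnep1, Ak8 and Abcg1 (Pearson r of 0.987, 0.984 and 0.977), and that of Mdm2 most like Soat1, Tax1bp1 and Stam2 (0.970, 0.968 and 0.967). The libraries share group, pair and length effects, which enter these values.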

How the data were processed

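The deposited table gave raw whole-number counts per gene for 12 libraries, without normalization by the authors, and a gene length in bases beside them. The submitters' processing notes name build mm10 and, as tools, STAR 2.7.2b, Subread 1.6.5 (featureCounts), bcl2fastq and edgeR. All 10 genes had the span that GENCODE M21 gives. No per-sample column from outside the series was used.

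Tests were run in R 4.3.3 on the counts with edgeR 4.0.16 (quasi-likelihood test, TMM factors of 0.942 to 1.02, filterByExpr, which removed 0 genes). One fit with a coefficient for each of the 4 groups (8 residual degrees of freedom, common dispersion 0.0115) gave all contrasts, and a gene was called where its p, adjusted by Benjamini-Hochberg across the 13715 genes, was under 0.05. All tests were two-sided, SE is the log2 fold change over the root of F, and intervals are 95%. CPM used TMM library sizes, RPKM also the deposited length. Alternatives were DESeq2 1.42.0, other scalings and filters, only the groups compared, a length-trend correction by a spline, a replicate block, and fits without each library or both KO 2 libraries. Block with length correction, and block without each same-numbered pair, were added after seeing the data. The procedure was tested on simulated data. Replicates differed by more than sampling noise.

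Within a genotype, IL-4 and mock libraries that share a number correlated in their deviations from group means. The correlations were 0.551, 0.579 and 0.518 in KO and 0.229, 0.491 and 0.406 in WT. The numbers, which the titles give within each genotype, were therefore taken to pair them in the replicate block. The reported fit had no block and did not use the pairing. Same-numbered KO and WT libraries did not correlate in this way (-0.319 to 0.175). The 10 genes and all lists were chosen with earlier results of these data known. From each list up to 4 called genes with the smallest adjusted p and a mean CPM of at least 1 were named per contrast, with a choice among these in the text, and for Cdkn1a and Mdm2 the 3 genes most alike (those for Trp53 are not reported here). Sequences are from RefSeq.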

Additional observations from a re-analysis of the deposited data

Results flagged for a closer look

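Ep300, the acetyltransferase gene listed among the regulators of p53, was called in the reported fit for a different IL-4 response in KO and WT. The difference was 0.70 on the log2 scale (SE 0.15, edgeR adjusted p = 0.046). It averaged 44.6 ± 0.429 CPM in KO IL-4, 55.7 ± 6.57 CPM in WT IL-4, 30.3 ± 4.15 CPM in KO mock and 61.5 ± 4.03 CPM in WT mock libraries (SD, n = 3). The IL-4 change was 0.56 in KO (adjusted p = 0.0011) and -0.14 in WT (adjusted p = 0.35). Over 21 alternative settings the difference ran from 0.49 to 0.78, with adjusted p from 0.0015 to 0.15, and it missed the threshold in 14 of them. The call was lost on leaving out any 1 library, without both KO 2 libraries and with library totals as the only scaling. The gene model is 14273 bases long, and the correlation of the difference with gene length over 8126 genes was 0.56.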

How the results depend on the processing

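No called value of the 10 genes changed sign under any alternative that was run. Over the 10 genes, 5 contrasts and all alternatives, 1168 values kept their side of the threshold, 69 passed it only under the alternative and 33 only in the reported fit. Calls of the 10 genes numbered 3 to 6 (KO against WT in mock, reported 5), 3 to 6 (with IL-4, reported 4), 4 to 6 (IL-4 in WT, reported 5) and 3 to 7 (IL-4 in KO, reported 5) when 1 library was left out. Without both KO 2 libraries they numbered 3, 2, 4 and 3. For the interaction, where 0 of the 10 were called, DESeq2 called 1, the replicate block 2, and the block with the length trend removed 2. Genes called in the whole table with IL-4 between genotypes numbered 2579, against 1596 without both KO 2 libraries and 1658 to 2686 without 1 library. For the interaction they numbered 101, against 65 with library totals, 742 with DESeq2, 1596 with the replicate block, 866 with the block and the length correction, 0 without both KO 2 libraries and 0 to 102 without 1 library. The regulators called between genotypes with IL-4 numbered 5, against 1 to 9 over the alternatives. The replicate block, which pairs mock and IL-4 libraries, changed no other call of the 10 genes than those given for Trp53, Phlda3 and Trp53inp1. As an additive number term between genotypes, where the numbers pair no samples, it left 5 (mock) and 4 (IL-4) genes called. The interaction has no value from the 2 groups compared alone. Depth limits Bbc3 most among the 10, at 229 to 541 counts per library.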
